A study of Mus musculus with 8 samples.

Results

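The Schlafen genes are a family of the mouse that is named after the German verb for sleeping, and 8 of its members were measured here in acute myeloid leukemia (AML) cells. The members were taken by name from the table of read counts: Slfn1, Slfn2, Slfn3, Slfn4, Slfn5, Slfn8, Slfn9 and Slfn10-ps, which are 8 of its 12823 rows. All 8 passed the filter on low counts, which kept 12494 genes. Mouse bone marrow progenitors had been transduced with MLL-AF9, a fusion of the histone methyltransferase gene MLL with AF9, on a vector that also makes GFP, and sublethally irradiated mice that received them developed AML. The 4 new AML libraries were made from the GFP+ cells of this first AML, and the 4 aggressive AML libraries from GFP+ cells obtained after 5 rounds of transplantation, which the study describes as done into non-irradiated mice. Both groups therefore carry the MLL-AF9 and GFP transgenes, come from bone marrow and had no drug treatment. Wild-type mice were of the strain C57BL/6 J, and mice were 8 to 12 weeks old, as stated in the methods for all experiments. The aggressive cells are described as the descendants of 1 leukemia, so the comparison is between stages that are described as those of a single passaged line. The replicates are labelled as biological, and male mice are given for this RNA-seq. The p-values below measure the spread between these libraries only.

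Schlafen proteins share an amino-terminal core, which in several members cuts or binds tRNA. They are grouped by length: Slfn1 and Slfn2 are short, Slfn3 and Slfn4 are intermediate, and Slfn5, Slfn8 and Slfn9 are long forms that add a helicase-like domain, whereas Slfn10-ps is a pseudogene. The family is known for control of growth and quiescence in T cells and monocytes, for induction by type I interferon in myeloid cells, and, through human SLFN11, for sensitivity of tumor cells to DNA damage.

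The genes lie side by side on chromosome 11 over 263.8 kb (chr11:82951349-83215154, GRCm38, GENCODE annotation). From low to high coordinates the order is Slfn5 on the plus strand, Slfn9, Slfn8 and Slfn10-ps on the minus strand, and Slfn2, Slfn1, Slfn4 and Slfn3 on the plus strand. The gaps between neighbours run from 1.11 kb, between Slfn4 and Slfn3, to 52.5 kb, between Slfn1 and Slfn4. Slfn5 and Slfn2 overlap antisense genes (Slfn5os and Gm20234), Slfn9 overlaps Mir7679 and Slfn10-ps overlaps Gm27598 and Gm48434. In the RefSeq annotation Slfn1 also overlaps the noncoding gene Gm51911. How reads of these overlaps were counted is not given, so they may be counted for either gene or for none. RefSeq promoters (GRCm38.p6, the 250 bases before a transcript start) were found for 7 of the 8 members, all except Slfn10-ps, and Slfn8 had 2 entries. The entry of Slfn5 is set from a transcript that starts 753 bases inside the gene as annotated, so its window lies within the gene and not before its first base. They were searched on both strands for the core of the interferon-stimulated response element (ISRE, GAAANNGAAA), the letters that an interferon-activated complex with IRF9 binds. The core was found in the windows of Slfn5, Slfn8 and Slfn9 and was not found in the window of Slfn1, Slfn2, Slfn3 or Slfn4, while 2.98% of all 32851 promoters hold it. The gamma-activated site (TTCNNNGAA) was found in 0 of the 7 genes against 7.02% of all promoters. The letters GAGGAA, one form of a site for ETS factors, were found in the window of Slfn9 only, against 23.3%. The shorter letters GGAA, which ETS sites share, were not searched, so the other windows may hold ETS sites.

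Window sequences of 5 members are shown because they hold the ISRE core or, for Slfn4 and Slfn3, because these genes changed in opposite directions although they are the closest neighbours. Capitals mark the ISRE core, and each is written 5′ to 3′ on the strand of its gene. For Slfn5 only the 133 bases of the window outside annotated exons are shown, which are a stretch within the gene (chr11:82951852-82951984, plus strand). The others are chr11:83020811-83021060 on the minus strand for Slfn8, chr11:82991831-82992080 on the minus strand for Slfn9, chr11:83174936-83175185 on the plus strand for Slfn4 and chr11:83191080-83191329 on the plus strand for Slfn3, all in GRCm38.p6.
Slfn5: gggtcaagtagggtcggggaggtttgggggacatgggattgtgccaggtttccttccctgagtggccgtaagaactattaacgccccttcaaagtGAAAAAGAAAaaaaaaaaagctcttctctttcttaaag
Slfn8: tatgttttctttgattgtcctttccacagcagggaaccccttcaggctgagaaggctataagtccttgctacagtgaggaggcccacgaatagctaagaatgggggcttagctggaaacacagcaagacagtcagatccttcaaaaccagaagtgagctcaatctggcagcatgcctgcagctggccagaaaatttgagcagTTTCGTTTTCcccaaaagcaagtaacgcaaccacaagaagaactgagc
Slfn9: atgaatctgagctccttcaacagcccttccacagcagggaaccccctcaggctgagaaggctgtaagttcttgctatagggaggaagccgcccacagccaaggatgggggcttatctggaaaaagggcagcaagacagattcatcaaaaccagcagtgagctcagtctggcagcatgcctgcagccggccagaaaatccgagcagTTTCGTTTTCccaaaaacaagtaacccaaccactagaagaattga
Slfn4: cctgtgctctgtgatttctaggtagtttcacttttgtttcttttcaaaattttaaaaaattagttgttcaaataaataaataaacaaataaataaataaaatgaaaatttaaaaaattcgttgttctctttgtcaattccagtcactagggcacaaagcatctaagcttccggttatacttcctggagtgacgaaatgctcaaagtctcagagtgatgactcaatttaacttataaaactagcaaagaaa
Slfn3: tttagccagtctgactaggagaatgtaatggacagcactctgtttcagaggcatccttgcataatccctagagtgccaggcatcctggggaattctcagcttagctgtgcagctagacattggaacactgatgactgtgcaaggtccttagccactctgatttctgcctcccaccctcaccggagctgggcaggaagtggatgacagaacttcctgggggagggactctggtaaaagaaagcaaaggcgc
The core of Slfn5 lies 155 to 146 bases before this internal transcript start, on the strand of the gene. The cores of Slfn8 (48 to 39 bases before the start) and Slfn9 (45 to 36 bases) are on the opposite strand, have the same 10 letters and sit in promoters that are 80.2% identical over an alignment of 262 columns. The other 20 pairs of promoters ran from 45.5% to 53.4%. A match describes the letters and was not tested for binding.

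The 8 libraries held 7805544 to 9697777 counts, so 1 count was worth 0.103 to 0.128 CPM, a unit that relates the reads of a gene to all reads of that library. The leukemia label was checked against 10 markers of MLL-AF9 myeloid leukemia, which were all tested, with 3 lower and 3 higher in aggressive AML. 4 Y-linked genes summed to 2315 to 2574 counts in each new AML library and to 0 in each aggressive AML library. The sex of the bone marrow donors is not given in the sources used here. The labels' growth protocol describes both groups as stages of the same cells. A different origin of the cells and a loss of Y-linked expression during passage cannot be told apart here. The part of this difference in the results below was not tested. No library stood apart from its group in a Schlafen gene by Dixon's test.

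All tests below compared the raw counts of 4 against 4 libraries with the quasi-likelihood test of edgeR, and adjusted p is the Benjamini-Hochberg value over all 12494 genes. Of the 8 members, 6 were lower in aggressive AML (Slfn5, Slfn1, Slfn8, Slfn2, Slfn9 and Slfn3), 1 was higher (Slfn4), and Slfn10-ps did not pass the test. Over all genes tested, 10.2% were called lower, 8.15% were called higher and 18.4% were called in either direction. The 2 groups of libraries did not overlap in 7 of 8 members, against 21.8% of all genes tested. The median log2 fold change of the members was -1.08, while that of all genes was 0.0004 with quartiles of -0.20 and 0.19.

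**Figure D1:**
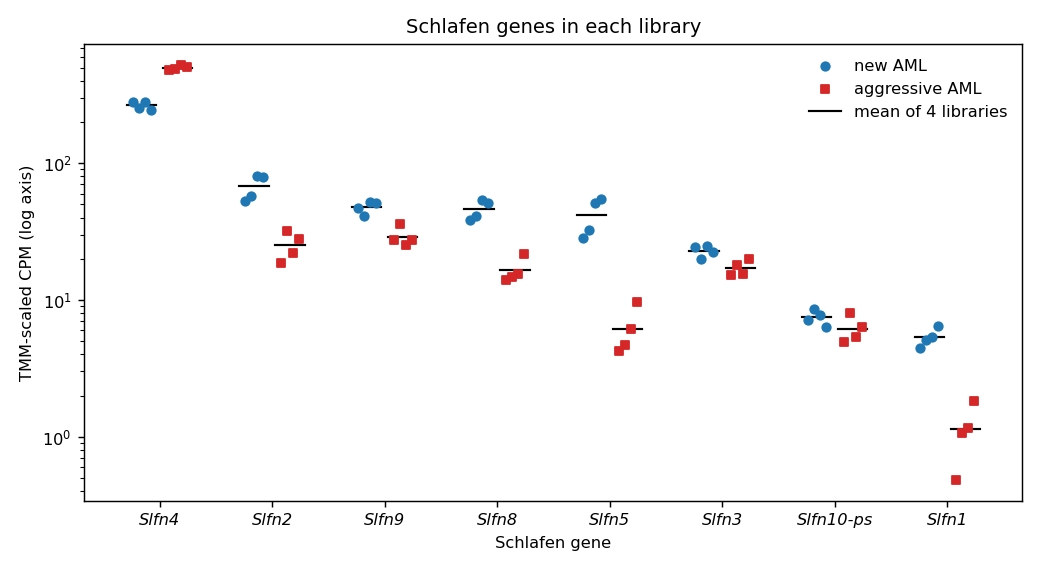
Level of each Schlafen gene in each library, as CPM on a log axis after TMM scaling of the library totals (trimmed mean of M values), with the genes on the horizontal axis. Circles are the 4 new AML libraries, squares are the 4 aggressive AML libraries, and black lines are group means. Slfn4 lies between 244.4 and 281.7 CPM in new AML and between 481.3 and 524.5 CPM in aggressive AML, whereas the squares of Slfn5 and Slfn1 lie furthest below their circles.

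Among the long forms, Slfn5 changed most. It is a nuclear protein that is known as an interferon-inducible regulator of transcription. Slfn5 measured 28.2, 32.2, 51.1 and 54.4 CPM in new AML replicates 1 to 4 and 4.22, 4.71, 6.09 and 9.67 CPM in aggressive AML replicates 1 to 4. Every aggressive library was below every new library, and within new AML replicates 3 and 4 were above replicates 1 and 2. The means were 41.5 ± 13.2 and 6.17 ± 2.46 CPM (SD, n = 4). The log2 fold change was -2.74 ± 0.26 (SE, 95% interval -3.29 to -2.19, edgeR adjusted p = 4.60e-06), or 6.68-fold lower.

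Slfn8 and Slfn9 are long forms next to each other on the minus strand, and are the mouse genes most often set beside human SLFN11. Slfn8 measured 38.3, 41.3, 53.5 and 51.3 CPM in new AML and 14.0, 14.6, 15.5 and 21.7 CPM in aggressive AML. The groups lay far apart, and replicate 4 was the highest of the aggressive libraries, as it was for Slfn5. The log2 fold change of Slfn8 was -1.48 ± 0.15 (SE, 95% interval -1.81 to -1.15, edgeR adjusted p = 1.29e-05), or 2.79-fold lower.

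Slfn9 measured 46.9, 41.3, 52.1 and 51.0 CPM in new AML and 27.6, 35.7, 25.01 and 27.6 CPM in aggressive AML. The groups did not overlap, and the highest aggressive library was replicate 2. Its log2 fold change was -0.72 ± 0.12 (SE, 95% interval -0.98 to -0.46, edgeR adjusted p = 0.000872), or 1.65-fold lower. The interval of Slfn9 lies above that of Slfn8, whose promoter holds the same ISRE core. Per kilobase of exon, the ratio of Slfn8 to Slfn9 went from 1.40 ± 0.143 in new AML to 0.847 ± 0.236 in aggressive AML (SD, n = 4), and the range of 1.19 to 1.499 in new AML did not overlap that of 0.597 to 1.15.

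Slfn10-ps lies just beyond Slfn8 and is annotated as a transcribed unprocessed pseudogene. It measured 7.08, 8.56, 7.81 and 6.35 CPM in new AML and 4.94, 8.01, 5.31 and 6.37 CPM in aggressive AML. The groups overlapped, with aggressive replicate 2 above 3 of the new libraries. The log2 fold change was -0.27 ± 0.21 (SE, 95% interval -0.71 to 0.17, edgeR adjusted p = 0.388), so a change of up to 0.71 downward is within its error. Slfn10-ps shares 13.5% of its 50-base words with transcripts of Slfn9, and 10.7% of those of Slfn8 are shared with Slfn10-ps, so reads of these 3 genes may not be fully separated.

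Both short forms were lower. Slfn2 is required for quiescence of T cells and monocytes, protects tRNA from cleavage under oxidative stress, and was the short form with the higher level. Slfn2 measured 53.3, 58.0, 81.2 and 79.1 CPM in new AML and 18.7, 31.8, 22.03 and 28.1 CPM in aggressive AML. No library of one group reached the other, and in new AML replicates 3 and 4 were again the higher pair. The means were 67.9 ± 14.3 and 25.2 ± 5.91 CPM (SD, n = 4). Slfn2 had a log2 fold change of -1.43 ± 0.17 (SE, 95% interval -1.79 to -1.07, edgeR adjusted p = 4.25e-05), or 2.69-fold lower.

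Slfn1 is the member first tied to arrest of T cell growth. It measured 4.41, 5.11, 5.35 and 6.46 CPM in new AML and 0.482, 1.06, 1.17 and 1.82 CPM in aggressive AML. These values rest on 43 to 58 counts per new library and on 4 to 16 per aggressive library, the fewest of any member, and the groups did not overlap. Slfn1 had a log2 fold change of -2.21 ± 0.33 (SE, 95% interval -2.92 to -1.51, edgeR adjusted p = 0.000289), or 4.64-fold lower. Its interval overlaps that of Slfn5 and also those of Slfn8 (-1.81 to -1.15) and Slfn2 (-1.79 to -1.07). The place of Slfn1 among these falls is therefore not resolved.

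The intermediate forms Slfn4 and Slfn3, neighbours on the same strand, differed in direction. Slfn4 is known from macrophages and from myeloid suppressor cells, where interferon and Toll-like receptor ligands induce it. Slfn4 measured 281.7, 254.5, 277.9 and 244.4 CPM in new AML and 481.3, 486.3, 524.5 and 501.7 CPM in aggressive AML. All 4 aggressive libraries were above all 4 new libraries, and the libraries within a group were closer to each other than for any other member. The means were 264.6 ± 18.1 and 498.4 ± 19.4 CPM (SD, n = 4). Slfn4 had a log2 fold change of 0.91 ± 0.07 (SE, 95% interval 0.76 to 1.07, edgeR adjusted p = 6.95e-07), or 1.88-fold higher. By mean CPM Slfn4 went from position 663 to position 256 among the genes tested.

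Slfn3, a gene known from T cells and gut epithelium, measured 24.3, 19.97, 24.6 and 22.4 CPM in new AML and 15.3, 18.0, 15.4 and 19.9 CPM in aggressive AML. The lowest new library (19.97 CPM) was barely above the highest aggressive library (19.91 CPM). The log2 fold change was -0.41 ± 0.13 (SE, 95% interval -0.69 to -0.13, edgeR adjusted p = 0.0398). This call was lost in 6 of the 8 fits that left out 1 library, that is without new AML replicate 1, 3 or 4 or without aggressive AML replicate 1, 2 or 3, with edgeR adjusted p from 0.0642 to 0.107. Slfn3 shares 18.0% of its 50-base words with other genes. The share with Slfn4, which was measured at a higher level, is 7.97%. The part of shared reads in the values of Slfn3 and Slfn4 was not tested.

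**Figure D2:**
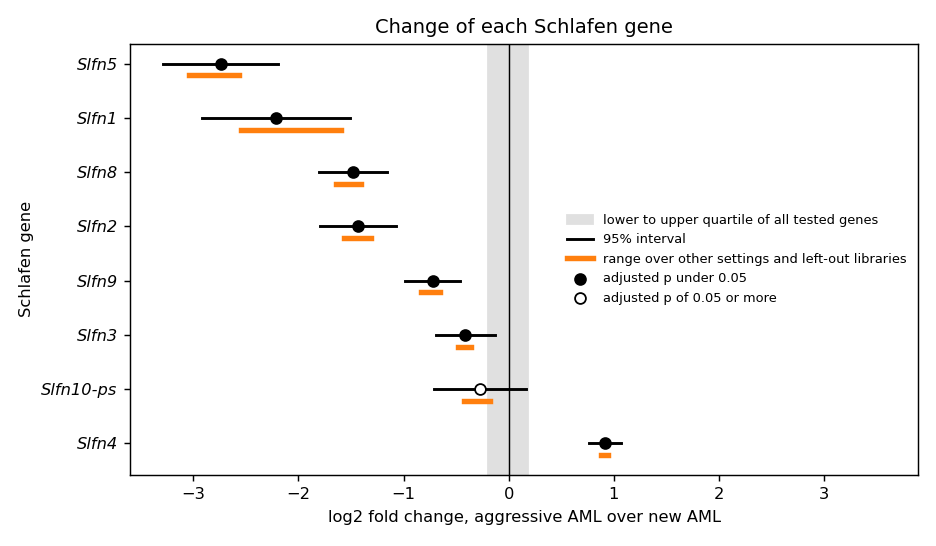
Log2 fold change of aggressive AML over new AML (horizontal axis) for each Schlafen gene (vertical axis). Points are the edgeR estimates, black lines are 95% intervals, orange lines are the range over other settings and left-out libraries, and the grey band runs from the lower to the upper quartile of all tested genes. Slfn5 (-2.74) and Slfn1 (-2.21) lie furthest to the left, Slfn4 (0.91) is the only point to the right of 0, and only the interval of Slfn10-ps reaches 0.

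Levels of different members were compared per kilobase of exon, since the exons of a member cover between 1664 bases (Slfn2) and 6326 bases (Slfn5). In new AML the order of mean CPM per kilobase was Slfn4 (66.8 ± 4.56), Slfn2 (40.8 ± 8.60), Slfn8 (11.3 ± 1.82), Slfn9 (8.02 ± 0.824), Slfn3 (6.69 ± 0.631), Slfn5 (6.56 ± 2.08), Slfn1 (2.86 ± 0.457) and Slfn10-ps (2.06 ± 0.262). Slfn9 and Slfn3, and Slfn3 and Slfn5, overlapped between libraries, while each other pair of neighbours in this order was separate. In aggressive AML the order was Slfn4 (125.7 ± 4.90), Slfn2 (15.1 ± 3.55), Slfn3 (5.03 ± 0.651), Slfn9 (4.86 ± 0.778), Slfn8 (4.02 ± 0.873), Slfn10-ps (1.70 ± 0.380), Slfn5 (0.976 ± 0.389) and Slfn1 (0.607 ± 0.294; SD, n = 4). Here Slfn3, Slfn9 and Slfn8 were not separated from their neighbours among each other, nor were Slfn10-ps, Slfn5 and Slfn1. Slfn5, which stood above the pseudogene in all new libraries, thus came to a mean below it.

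Slfn4 made up a larger share of the Schlafen transcripts in aggressive AML. It took 52.2%, 48.6%, 43.5% and 40.9% of the summed CPM per kilobase in new AML and 82.3%, 76.6%, 82.1% and 77.4% in aggressive AML. The mean share rose from 46.3 ± 5.05% to 79.6 ± 3.04% (SD, n = 4), and the groups were far apart. The share of Slfn2 went from 27.9 ± 3.69% to 9.52 ± 1.99%, again with no overlap. The summed CPM per kilobase of all 8 genes overlapped between the groups, at 132.1 to 161.0 in new AML and 147.4 to 163.5 in aggressive AML. Summed CPM without the scaling to length did not overlap, at 460.9 to 553.6 in new AML and 566.4 to 616.9 in aggressive AML. Without Slfn4 the sum per kilobase was 65.1 to 90.9 in new AML and 26.0 to 37.5 in aggressive AML. The ratio of Slfn4 to Slfn3 per kilobase rose from 10.01 ± 0.682 in new AML to 25.3 ± 3.48 in aggressive AML (SD, n = 4), without overlap. In these bulk libraries fewer cells with a transcript and less transcript per cell cannot be told apart.

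**Figure D3:**
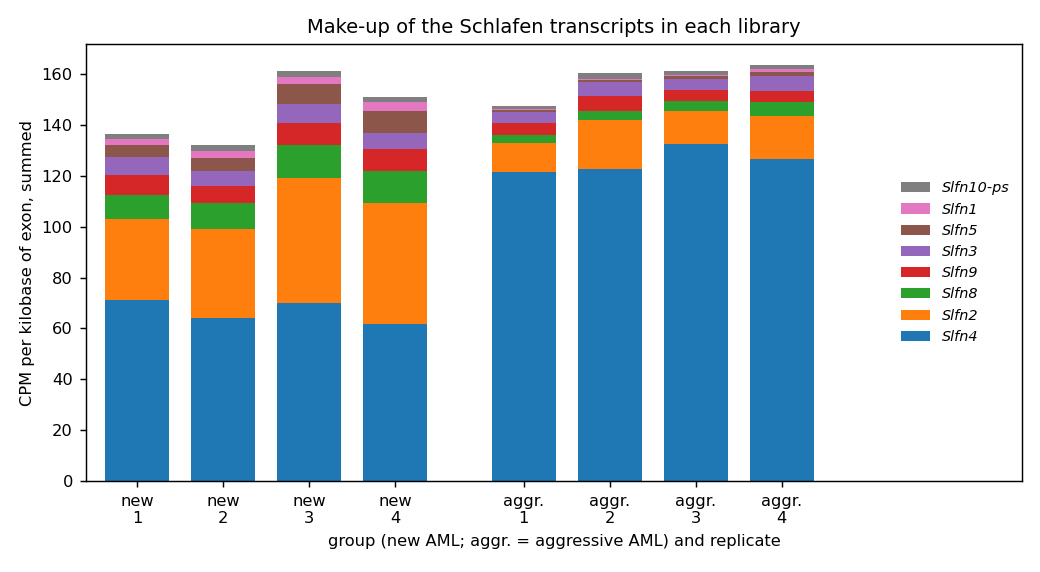
CPM per kilobase of exon of the 8 Schlafen genes, stacked for each library (vertical axis), with the 4 new AML and the 4 aggressive AML libraries on the horizontal axis. The totals of the groups overlap, while the Slfn4 segment takes 40.9% to 52.2% of it in new AML and 76.6% to 82.3% in aggressive AML.

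Several members ranked the libraries of a group in a like order. In new AML, replicates 3 and 4 were the highest pair in 5 of 8 members (Slfn1, Slfn2, Slfn5, Slfn8 and Slfn9). In aggressive AML, replicate 1 was the lowest library in 7 of 8 members, all except Slfn9. The shares of all tested genes with these orders were not determined, so the orders cannot be called particular to the Schlafen genes. Profiles were compared by the root mean square difference of log2(CPM + 1), centred on the mean of the 8 libraries. The most alike pair of members was Slfn1 and Slfn8 at 0.169, and the least alike pair was Slfn4 and Slfn5 at 1.79. The added 1 shrinks the change of Slfn1, which had a mean of 1.13 CPM in aggressive AML. With limma on log2(CPM + 1) its log2 fold change was -1.60, against -2.21 by edgeR. For Slfn8 the values were -1.44 and -1.48, so the likeness of this pair depends on the added 1.

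Genes outside the family were ranked by the same distance among 9283 genes with a mean of at least 10 CPM. Muc13, a membrane mucin, was among the 2 closest genes of Slfn1 (0.225), Slfn2 (0.222) and Slfn8 (0.134). The closest gene to Slfn5 was Pyhin1 (0.343), an interferon-inducible nuclear DNA-binding protein. The closest gene to Slfn2 was Fgl2 (0.126), to Slfn1 Mmp8 (0.213), a neutrophil collagenase, to Slfn9 B4galt5 (0.110) and to Slfn3 Trim25 (0.0821), a ubiquitin ligase of RNA sensing. The second genes were Ms4a6c for Slfn8 (0.178), S1pr2 for Slfn9 (0.112) and Rab29 for Slfn3 (0.0935). Slfn4 was closest to Ash2l (0.0924), a subunit of histone H3 methyltransferase complexes, and to Ccdc154 (0.105), while Slfn10-ps was closest to Nup210l (0.0699) and Fastkd1 (0.0917). These distances describe 8 libraries that form 2 groups, and a gene with a like fold change is close for that reason alone.

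Most Schlafen genes are known interferon targets, so the members were set beside 35 genes of the type I interferon response, of which 32 were tested. Of these, 28 were lower, 0 were higher, and the median log2 fold change was -1.08, as for the Schlafen members. Interferon genes were known to be lower in these same libraries when the list was written, so the list is not independent evidence of direction. Oas2, a sensor of double-stranded RNA, went from 24.2 to 4.16 CPM (log2 fold change -2.52 ± 0.26 SE, edgeR adjusted p = 1.39e-05), close to the size of the Slfn5 change. Irf7, the factor that amplifies interferon transcription, went from 26.3 to 7.28 CPM (log2 fold change -1.85 ± 0.23 SE, edgeR adjusted p = 7.08e-05). Ifit2 had a log2 fold change of -0.23 (edgeR adjusted p = 0.294), and Rsad2, Herc6 and Phf11d also did not pass the test. Slfn4, with its rise, had the opposite sign to all 32 tested genes of this list.

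The mean log2(CPM + 1) of the interferon list was 4.47, 4.24, 5.24 and 4.63 in new AML replicates 1 to 4 and 3.47, 3.59, 3.61 and 3.64 in aggressive AML. Replicate 3 was the highest new library and replicate 1 the lowest aggressive library of this list. The highest new library of Slfn8, Slfn2, Slfn9 and Slfn3 was also replicate 3. Slfn5 and Slfn1 were highest in replicate 4, Slfn4 in replicate 1 and Slfn10-ps in replicate 2. The share of all tested genes that were highest in replicate 3 was not determined.

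**Figure D4:**
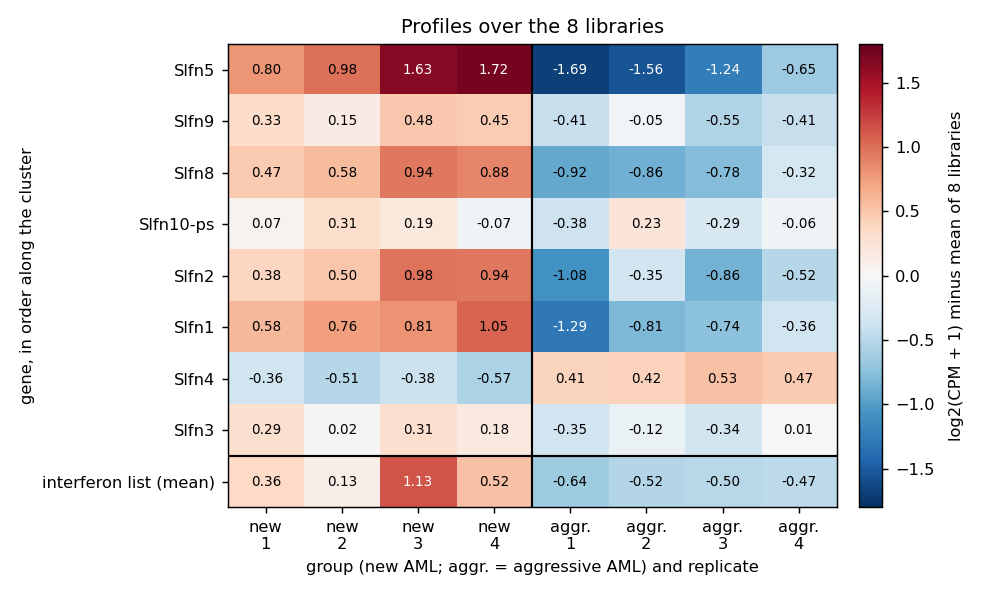
Log2(CPM + 1) of each Schlafen gene in each library minus its mean over the 8 libraries (colour and printed value), with genes in order along the cluster and the interferon list below the line. New AML libraries are on the left and aggressive AML libraries on the right. Slfn5 spans from 1.72 to -1.69, Slfn4 has the opposite colours to its neighbours, and the interferon list is highest in new AML replicate 3 (1.13).

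Of 12 genes for interferon receptors and signalling, 10 were lower, 1 was higher and the median log2 fold change was -0.47. Irf9, the DNA-binding part of the complex that reads the ISRE, went from 102.5 to 49.95 CPM (log2 fold change -1.04 ± 0.10 SE, edgeR adjusted p = 4.53e-06). Stat2 went from 66.1 to 46.0 CPM (log2 fold change -0.52 ± 0.11 SE, edgeR adjusted p = 0.00421). Both type I receptor chains were lower, with log2 fold changes of -0.38 for Ifnar1 and -0.43 for Ifnar2. The chains of the receptor for interferon gamma went in opposite directions. Ifngr2 was lower at -0.65 (edgeR adjusted p = 0.000154). Ifngr1 was higher at 0.38 (edgeR adjusted p = 0.0204, a call lost without new AML replicate 1). Jak1 did not pass the test.

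The changes of the members were also read by whether their window holds the ISRE core. The genes that hold it had log2 fold changes of -2.74 (Slfn5), -1.48 (Slfn8) and -0.72 (Slfn9). Those without it in the window had -2.21 (Slfn1), -1.43 (Slfn2), -0.41 (Slfn3) and 0.91 (Slfn4), so the ranges overlap. The window of Slfn5 lies within the gene, and the bases before its annotated start were not searched. The part of the core in these changes was not tested.

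A list of 12 genes for tRNA processing and for the replication stress response, the settings in which Schlafen proteins act, was tested in full. Of these, 0 were lower and 1 was higher, and the median log2 fold change was 0.05. The gene that rose was Trdmt1, a tRNA methyltransferase, from 11.2 to 15.4 CPM (log2 fold change 0.46 ± 0.15 SE, edgeR adjusted p = 0.0420). This call was lost without new AML replicate 1, 2 or 4 and without aggressive AML replicate 1, 2 or 3, and 1 of 12 is near the 8.15% of all genes called higher. Mcm3 and Rpa1, which act at the replication fork, had log2 fold changes of 0.04 and -0.06 and did not pass the test. Slfn14, Slfnl1 and the antisense gene Slfn5os were not analysed here.

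The tested genes around the cluster had no common direction. Within 500 kb of either end of the cluster, 19 of 57 other annotated genes were tested, of which 2 were lower, 2 were higher, and the median log2 fold change was 0.05. These counts are near the shares over all genes tested, which were 10.2% lower and 8.15% higher. All 19 lay outside the span of the cluster, and 16 of them had changes under 0.4 in size. The tested neighbour nearest to Slfn5 was Nle1, a ribosome assembly factor, which rose with a log2 fold change of 0.37 ± 0.11 (SE, edgeR adjusted p = 0.0299). The nearest beyond Slfn3 was AI662270, with 0.08 ± 0.07 (SE, edgeR adjusted p = 0.422). The other called neighbours were 1700020L24Rik (0.37, edgeR adjusted p = 0.0191), the clathrin adaptor subunit Ap2b1 (-0.39, edgeR adjusted p = 0.00359) and Wfdc17 (-0.95, edgeR adjusted p = 0.00122), a gene of activated myeloid cells. By estimate, the falls of Slfn5, Slfn1, Slfn8 and Slfn2 were larger than the change of any of the 19.

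**Figure D5:**
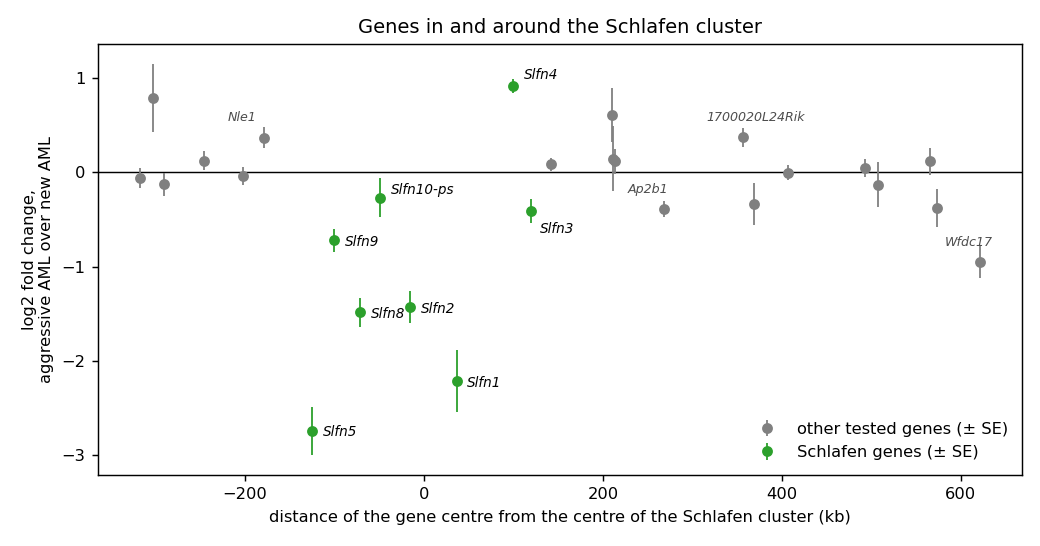
Log2 fold change of aggressive AML over new AML (vertical axis, bars are SE) against the distance of the gene centre from the centre of the Schlafen cluster in kb (horizontal axis). Green points are the 8 Schlafen genes, grey points are the 19 other tested genes, and those of them past the test are named. The green points run from -2.74 to 0.91 and the grey points from -0.95 to 0.79.

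Since Schlafen genes are used by many blood cells, markers of other cell types were read in the same libraries. For comparison, 10.2% of all genes tested were called lower and 8.15% were called higher. Of 10 T cell markers, 3 were tested, with 2 higher and 0 lower, and their summed level was 9.25 to 12.7 CPM in new AML and 12.6 to 25.2 CPM in aggressive AML. The count of 2 fell to 0 or 1 in each of the 8 fits that left out 1 library. The defining T cell genes Cd3d, Cd3e, Cd3g, Cd4 and Cd8a had no row in the table. Of 7 B cell markers 2 were tested and 1 was lower (40.2 to 45.4 CPM in new and 30.6 to 33.97 CPM in aggressive AML, with no row for Ms4a1, Pax5 or Ebf1). Of 7 NK cell markers 1 was tested and was higher (11.1 to 22.2 CPM and 19.95 to 29.9 CPM, with no row for Ncr1, Prf1 or Gzma).

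Of 14 neutrophil markers 8 were lower and 0 were higher, with a median log2 fold change of -0.93 and summed levels of 377 to 605.4 CPM in new AML and 222.6 to 273.0 CPM in aggressive AML. The share called lower over all genes tested was 10.2%, here and for the lists below. Of 11 macrophage and monocyte markers 8 were tested, of which 3 were lower and 0 were higher. Their median log2 fold change was -0.91, with 7 estimates below 0. The summed level of all markers with a row overlapped between the groups (2078 to 2895 CPM and 2397 to 2558 CPM). C1qa and C1qb had no row. Ly6c2 made up most of this sum (means of 1727 and 2067 CPM, log2 fold change 0.26, edgeR adjusted p = 0.134). The 3 lower were Csf1r (-1.70), Ccr2 (-0.93) and Adgre1 (-0.83). Of 10 erythroid markers 8 were tested and 3 were lower (33.8 to 119.3 CPM and 11.4 to 56.6 CPM). Their median log2 fold change was -1.05. The count of 3 lower was 1 without new AML replicate 1 or 4 or aggressive AML replicate 2. It was 5 without new AML replicate 2. The part of these cells or stages in the change of the Schlafen genes was not tested.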

How the data were processed

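RNA was measured in 8 libraries of GFP+ MLL-AF9 leukemia cells, 4 per group, and groups were taken from the sample labels. The authors purified polyadenylated RNA, aligned paired reads to mm10 with HISAT2 and counted them per gene with Rsubread, and genes under 1 CPM were left out. The annotation and the strand setting are not given in the sources used here. Values of genes with an overlapping partner (Slfn5, Slfn9, Slfn10-ps, Slfn2 and Slfn1) and of near copies are therefore uncertain. Although the file name speaks of CPM, the deposited values are whole-number counts whose totals differ between libraries (7805544 to 9697777), and they were used as such.

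Genes that reached 1 CPM in 4 or more libraries were tested (12494 genes, 329 left out) with the quasi-likelihood test of edgeR 4.0.16 (R 4.3.3), TMM scaling, group as the only term, two-sided p-values and Benjamini-Hochberg adjustment at 0.05. The SE of a log2 fold change was derived from its F statistic. Replicate libraries differed by more than sampling noise (chi-square per gene of 4.06 to 11.0). The alternatives were DESeq2 1.42.0, limma 3.58.1 on log2(CPM + 1) and log2(CPM + 0.5), other scaling, other filters, a replicate block and leaving out each library. Lengths are the union of exons in GENCODE vM21, and 50-base words were compared between its transcripts.

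The members and lists were chosen with earlier results of these data known. The text names all members, genes of the lists, called genes within 500 kb of the cluster and, for each member, the 2 genes of nearest profile, except for some items that are not reported here. AI662270 and the list genes picked as examples were chosen after their values were seen. The depth limits genes of low level, and Slfn1 had as few as 4 counts in a library.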

Additional observations from a re-analysis of the deposited data

Results flagged for a closer look

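No Schlafen gene had a library that stood apart in any of the 16 groups of 4 libraries to which Dixon's test was applied. Of 36 groups tested in all, 1 had such a library: the mean log2(CPM + 1) of the tested T cell markers in aggressive AML, where replicate 3 (2.31) lay below the other libraries (2.93 to 3.05). The gap over the range was 0.8356, above Dixon's 95% critical value for 4 libraries. Chance alone marks about 1 in 20 groups.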

How the results depend on the processing

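The calls of Slfn2, Slfn4, Slfn5, Slfn8 and Slfn9 held in all 16 alternatives and that of Slfn1 in the 15 in which it was tested, the exception being the filter at 5 CPM, which removed it. Slfn10-ps passed the test in none of 16 (adjusted p from 0.214 to 0.629), and Slfn3 passed in 9 of 16 (adjusted p from 0.0255 to 0.107). No member changed direction. The number of members called lower was 5 or 6 and the number called higher was 1 in every alternative. In the fits that left out 1 library, genes called higher over the whole table ranged from 650, without new AML replicate 2, to 1077, without aggressive AML replicate 4, and genes called lower from 884 to 1304 over the same fits; the cause was not tested. In the other alternatives they ran up to 1161 higher and 1377 lower, both with DESeq2. The replicate block moved the called erythroid markers to 6 and the called T cell markers to 0. Other scalings moved the median of all genes by -0.0075 and 0.0057 (log2). Deviations of libraries with the same number had correlations of 0.097, -0.040, -0.065 and 0.204. Those of libraries with different numbers ran from -0.1785 to 0.1467. These values are low and cannot exclude a pairing by number. With the replicate block 1003 genes were called higher and 1364 lower, Slfn3 lost its call (adjusted p = 0.0615), and 5 members were called lower and 1 higher.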
